A study of Rattus norvegicus with 6 samples.

Results

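The 9 genes described here encode the machinery that cuts proteins into peptides and loads them onto MHC class I molecules. They were chosen by gene symbol, from a list drawn up when earlier results of these data were known, and each symbol was found on 1 of the 30945 gene rows. Psmb8, Psmb9 and Psmb10 encode the catalytic subunits of the immunoproteasome, Tap1 and Tap2 the peptide transporter of the endoplasmic reticulum, and Tapbp the loading factor tapasin. Erap1 encodes a peptide-trimming aminopeptidase, B2m the class I light chain beta-2 microglobulin, and Nlrc5 a transcriptional activator of class I genes. RNA was sequenced from cultured rat primary vascular smooth muscle cells (VSMCs) in 3 libraries labelled siRNA_ANK and 3 labelled Negative_control, and the comparison asks how ANK deficiency changes gene expression. The labels give no strain, age, sex, culture time or siRNA dose. They leave unsaid whether each library has its own animal or culture, so p-values here describe spread among libraries that may be technical only. The labels name no interferon treatment.

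In most cells the proteasome carries the standard catalytic subunits encoded by Psmb6, Psmb7 and Psmb5. Interferon gamma and other inflammatory signals replace them with the products of Psmb9, Psmb10 and Psmb8, which shifts the cleavage pattern towards peptides that fit class I molecules. These peptides pass through the transporter associated with antigen processing (TAP) and are trimmed by Erap1. They are loaded onto class I molecules with the help of tapasin, calreticulin and the disulfide isomerase Pdia3. In vascular smooth muscle the pathway is known for its response to interferon gamma in inflamed arteries. In the rat, as in other mammals, the genes of both TAP subunits and of 2 immunoproteasome subunits lie together inside the MHC.

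The libraries held between 15641259 and 17441548 counts each. Levels are given as CPM, counts scaled to the library total with TMM factors. The labels name the target only as ANK and give no siRNA sequence. It was taken to be Ankh, whose protein is also called ANK, and Ankh was lower in each siRNA_ANK library, at 93.6 ± 22.8 CPM against 352 ± 14.7 CPM in the controls (SD, n = 3 each). Over all 13016 genes tested, 40.1% were called at an edgeR adjusted p under 0.05, 19.9% higher and 20.2% lower in siRNA_ANK, and the groups did not overlap for 51.1%. Along the first principal component, siRNA_ANK replicate 3 and Negative_control replicate 2 lay nearest to the opposite group. Smooth muscle markers Acta2, Myh11, Tagln, Cnn1, Smtn, Des and Myocd were all detected and summed to 5083 to 6081 CPM in siRNA_ANK and 2559 to 3554 CPM in the controls, with 6 of the 7 higher in siRNA_ANK at an adjusted p under 0.05. The 6 fibroblast markers summed to 192 to 203 CPM in siRNA_ANK and 118 to 127 CPM in the controls, and 5 of them rose, among them Lum (2.06-fold), Scara5 (3.15-fold) and Pdgfra (1.25-fold). Of 12 macrophage and leukocyte markers, 6 had no count in any library, among them Ptprc, Itgam and Adgre1. The 12 summed to 11.2 to 15.2 CPM in siRNA_ANK and 24.8 to 28.0 CPM in the controls, nearly all of it from Cd14, which averaged 12.0 and 25.2 CPM in siRNA_ANK and control libraries. The 6 dendritic markers summed to at most 9.52 CPM in siRNA_ANK and at least 13.5 CPM in the controls, the difference lying mostly in Itgax at 0.844 ± 0.531 CPM in siRNA_ANK and 6.03 ± 0.638 CPM in the controls, and the 6 endothelial markers to at most 1.58 CPM.

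Psmb8, Tap2 and Tap1 were lower in siRNA_ANK cells, and they are neighbours in the MHC. Of the 9 genes, 7 had enough counts to be tested. At an adjusted p under 0.05, 3 fell and 1 rose, where 40.1% of all genes tested were called. The median log2 fold change of the 7 was 0.02 and that over all genes tested was 0.01. The falls of Psmb8 and Tap2 exceeded 2-fold, as did 2.58% of all genes tested in that direction. In bulk RNA a smaller share of expressing cells and less RNA per cell cannot be told apart. Ptprc, which marks all leukocytes, was at 0 in every library, and the part of the lower Cd14 and Itgax and of the higher smooth muscle and fibroblast markers in these falls was not tested. Without siRNA_ANK replicate 3 and Negative_control replicate 2 the counts were again 3 lower and 1 higher. The rise was lost without Negative_control replicate 1 or 3 or siRNA_ANK replicate 2.

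**Figure D1:**
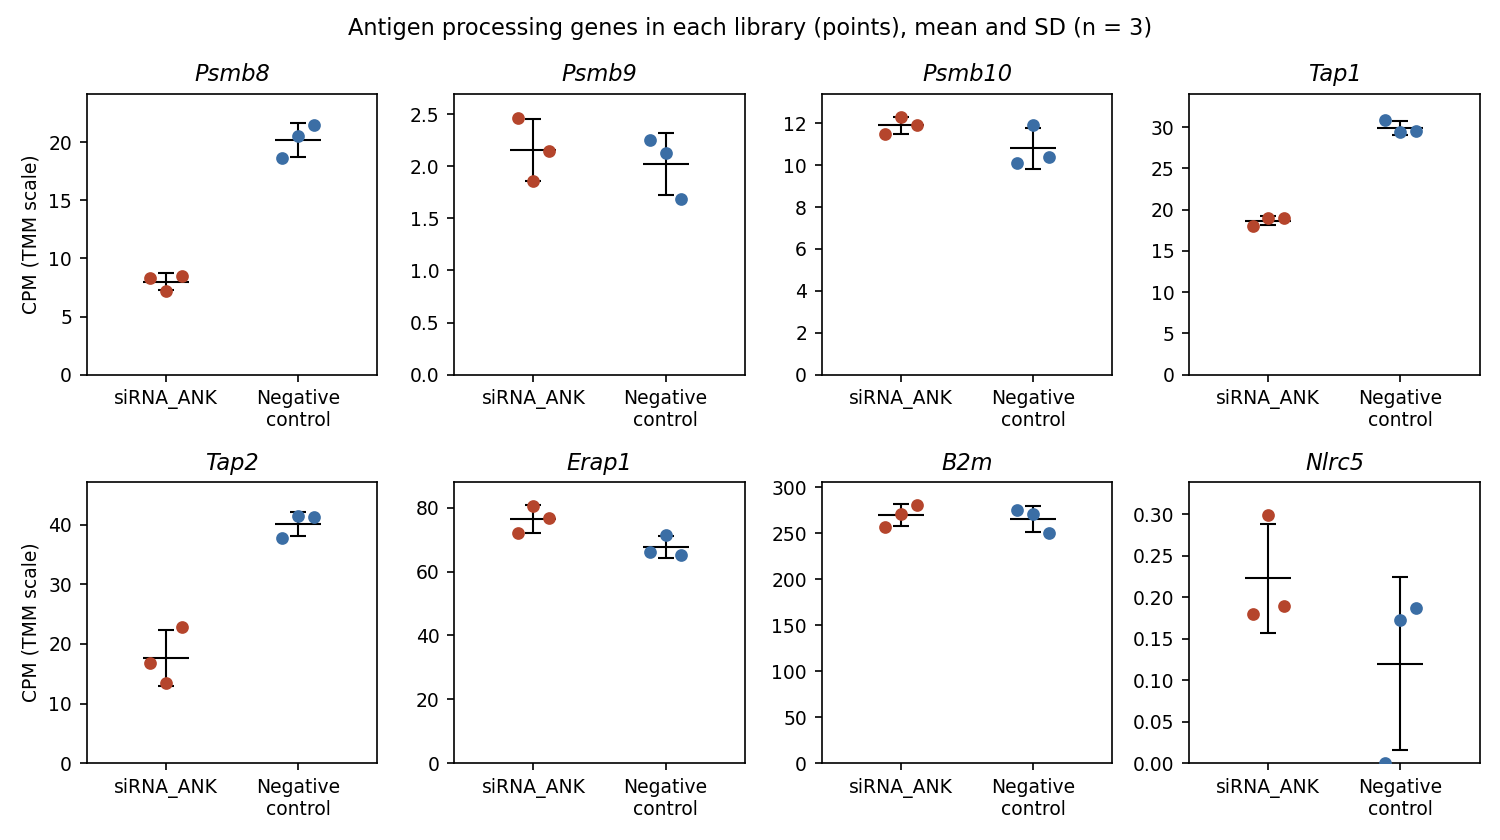
CPM on the TMM scale (vertical axes, each from 0) of 8 genes in the 3 siRNA_ANK libraries (left, red) and the 3 Negative_control libraries (right, blue), with the mean and SD as bars. The points of Psmb8, Tap1 and Tap2 lie lower in siRNA_ANK with no overlap, while those of Psmb9, Psmb10 and B2m overlap. Tapbp had no count in any library and is not drawn.

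Among the catalytic subunits, Psmb8 fell. It encodes the immunoproteasome subunit with chymotrypsin-like activity (also known as LMP7) and takes the place of the Psmb5 product. Psmb8 (ENSRNOG00000000456, chromosome 20, 4652159 to 4655283, minus strand, mRatBN7.2) measured 8.33, 7.18 and 8.48 CPM in siRNA_ANK replicates 1 to 3, against 18.6, 20.5 and 21.5 CPM in the control replicates. Every siRNA_ANK library was below every control library. The log2 fold change was -1.34 ± 0.11 (SE, n = 3 each, edgeR adjusted p = 4.44e-07), a 2.52-fold fall. Leaving out any 1 library gave values between -1.40 and -1.27.

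Psmb9, which encodes the subunit LMP2, was the least abundant of the tested genes. It lies on chromosome 20, 4666046 to 4672512, on the plus strand, and measured 2.46, 1.86 and 2.15 CPM in siRNA_ANK, against 2.25, 2.13 and 1.69 CPM in the controls. The groups overlapped, and the log2 fold change of 0.09 ± 0.25 was not called (edgeR adjusted p = 0.810). These values rest on 31 to 41 counts in each siRNA_ANK library and 27 to 40 in each control library, so only a large change of Psmb9 could have been detected. Its direction changed without Negative_control replicate 3 (-0.03) or siRNA_ANK replicate 1 (-0.02).

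Psmb10, the gene of the third subunit (MECL-1), lies outside the MHC on chromosome 19 (33827229 to 33833626, minus strand). It measured 11.5, 12.3 and 11.9 CPM in siRNA_ANK and 10.1, 11.9 and 10.4 CPM in the controls. Only the highest control reached into the siRNA_ANK range, and the log2 fold change of 0.14 ± 0.11 was not called (edgeR adjusted p = 0.360).

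The standard subunits were far more abundant than their immunoproteasome counterparts in both groups. Psmb5 averaged 70.1 ± 6.53 CPM in siRNA_ANK and 74.6 ± 3.56 CPM in the controls and Psmb7 ranged from 78.8 to 84.2 CPM in siRNA_ANK and 83.7 to 85.5 CPM in the controls, neither of them called (edgeR adjusted p = 0.341 and 0.566). Psmb6 fell 1.25-fold to 52.9 ± 4.64 CPM in siRNA_ANK, against 66.4 ± 3.61 CPM in the controls (adjusted p = 0.00265). Without siRNA_ANK replicate 3, 2 of these 3 genes were called lower. Levels of different genes were compared per kb of the gene length given in the files. On that scale, Psmb8 stood at 8.04%, 7.07% and 7.07% of Psmb5 in the siRNA_ANK libraries, against 15.2%, 18.3% and 19.1% in the controls. The log2 difference in this ratio was -1.24. Psmb9 stood at 2.01%, 1.54% and 1.53% of Psmb6 in siRNA_ANK and 1.45%, 1.37% and 0.990% in the controls, a log2 difference of 0.42 in a ratio whose denominator fell, and of 0.25 without Negative_control replicate 3. Psmb10 stood at 5.37%, 5.99% and 5.43% of Psmb7 in siRNA_ANK and 4.64%, 5.36% and 4.76% in the controls, so that the groups were only just apart, with a log2 difference of 0.19. None of the 3 ratios overlapped between the groups, where the groups did not overlap for 51.1% of all genes tested. The share among ratios of other genes was not taken. On their own, Psmb9, Psmb10, Psmb5 and Psmb7 each overlapped. Each ratio gave p = 0.1 in a two-sided exact permutation test (also 0.1 adjusted over the 3 ratios), the smallest value that 3 against 3 libraries allow. The ratio of Psmb8 to Psmb10 per kb was chosen after the values were seen. It was 156%, 126% and 153% in siRNA_ANK and 394%, 369% and 446% in the controls (log2 difference -1.48, exact permutation p = 0.1, also 0.1 adjusted over the 3 ratios chosen this way).

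**Figure D2:**
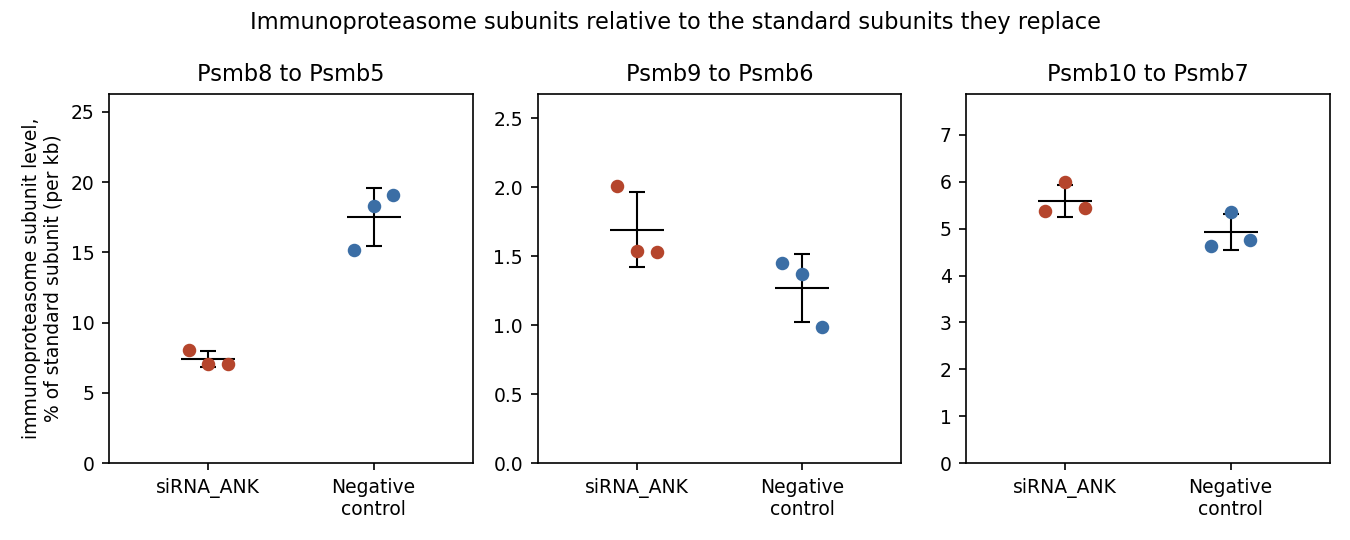
Level of each immunoproteasome subunit gene as a percentage of the standard subunit gene it replaces, per kb of gene length, in each siRNA_ANK (left, red) and Negative_control (right, blue) library, with the mean and SD (n = 3). Psmb8 averages 7.39% of Psmb5 in siRNA_ANK and 17.6% in the controls, while the other ratios are slightly higher in siRNA_ANK.

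The genes of both transporter subunits fell. Tap2 (ENSRNOG00000000455, chromosome 20, 4636357 to 4650407, minus strand) measured 16.8, 13.5 and 22.8 CPM in siRNA_ANK, against 37.8, 41.4 and 41.3 CPM in the controls. The highest siRNA_ANK value was that of replicate 3, still below every control. The log2 fold change was -1.18 ± 0.15 (edgeR adjusted p = 0.000248, n = 3 each), and it ranged from -1.41 without siRNA_ANK replicate 3 to -1.02 without siRNA_ANK replicate 2. Tap1 (ENSRNOG00000000457, chromosome 20, 4656263 to 4666901, minus strand) measured 18.0, 19.0 and 19.0 CPM in siRNA_ANK, against 30.9, 29.4 and 29.5 CPM in the controls, with little spread in either group. Its log2 fold change was -0.68 ± 0.08 (edgeR adjusted p = 1.06e-05), a 1.61-fold fall. Per kb, Tap2 stood at 113%, 85.8% and 145% of Tap1 in siRNA_ANK and at 148%, 170% and 169% in the controls. This ratio, chosen after the values were seen, had a log2 difference of -0.53 (exact permutation p = 0.1, the smallest possible), and its highest siRNA_ANK value lay just below the lowest control.

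Tap1 and Psmb9 are transcribed away from each other from a short shared region, a known bidirectional promoter. Tap1 fell and Psmb9 was not called. The ratio of Tap1 to Psmb9 per kb was 487%, 680% and 589% in siRNA_ANK, against 915%, 919% and 1166% in the controls (log2 difference -0.78, exact permutation p = 0.1, chosen after the values were seen). In the files' annotation the spans of the 2 genes share 856 bases on opposite strands. The strand setting of the counting is not given in the sources used here, so reads from those shared bases cannot be told apart. In RefSeq annotation of the later build GRCr8 the starts are 456 bases apart and the promoter windows (250 bases before to 50 after each start) share 44 bases. Windows were found for 7 of the 9 genes, and 4 are shown because they belong to the MHC neighbours, of which 3 fell and 1 was not called. Each is printed in the direction of its gene, with capitals for matches on either strand to ISRE (a pair of GAAA with any 2 bases between, bound by interferon regulatory factors), GAS (TTCNNNGAA, bound by STAT factors), NF-kB (GGG and CC with any 5 bases between) or CCAAT, and overlapping matches run together.
Tap2, chr20:4652247-4652546, minus strand, GRCr8: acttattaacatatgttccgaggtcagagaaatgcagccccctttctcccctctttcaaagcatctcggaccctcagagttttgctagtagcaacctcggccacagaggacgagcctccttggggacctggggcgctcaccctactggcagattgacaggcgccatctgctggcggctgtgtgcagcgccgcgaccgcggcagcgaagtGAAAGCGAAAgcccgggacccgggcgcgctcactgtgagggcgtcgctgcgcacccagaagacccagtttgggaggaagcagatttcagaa
Psmb8, chr20:4656982-4657281, minus strand, GRCr8: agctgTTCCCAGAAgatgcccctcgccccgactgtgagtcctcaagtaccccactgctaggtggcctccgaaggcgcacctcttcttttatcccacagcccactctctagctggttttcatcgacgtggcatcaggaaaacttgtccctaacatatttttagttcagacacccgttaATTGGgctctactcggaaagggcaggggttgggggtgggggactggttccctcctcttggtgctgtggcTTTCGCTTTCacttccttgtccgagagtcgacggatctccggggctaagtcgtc
Tap1, chr20:4668494-4668793, minus strand, GRCr8: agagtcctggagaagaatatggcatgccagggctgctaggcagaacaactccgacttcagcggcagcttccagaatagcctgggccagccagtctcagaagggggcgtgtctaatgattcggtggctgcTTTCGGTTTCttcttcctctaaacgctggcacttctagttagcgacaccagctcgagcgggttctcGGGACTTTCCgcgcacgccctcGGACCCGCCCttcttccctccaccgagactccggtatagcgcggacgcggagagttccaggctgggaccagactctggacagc
Psmb9, chr20:4668750-4669049, plus strand, GRCr8: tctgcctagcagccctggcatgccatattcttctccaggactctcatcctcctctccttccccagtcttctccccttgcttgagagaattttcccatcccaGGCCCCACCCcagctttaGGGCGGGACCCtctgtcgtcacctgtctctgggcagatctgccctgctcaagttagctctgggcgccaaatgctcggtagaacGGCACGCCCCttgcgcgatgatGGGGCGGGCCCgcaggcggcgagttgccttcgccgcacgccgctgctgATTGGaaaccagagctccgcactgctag

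The windows of Tap2, Psmb8 and Tap1 each held 1 ISRE match, at bases 210 to 219, 247 to 256 and 130 to 139 of their windows, counted from 1 at the 5′ end. The Psmb9 window held none within these 300 bases. It held 7 NF-kB matches, several of them overlapping, with the 2 strands counted separately. Counted in the same way, the windows of Tap1, B2m and Tapbp held 2, 2 and 4 NF-kB matches. Those of Tap2, Psmb8 and Psmb10 held 0. The Tap1 ISRE match began at -121 from the Tap1 start and lay between the starts of Tap1 and Psmb9, which are 456 bases apart. It was outside the Psmb9 window because it lay more than 250 bases before the Psmb9 start. The lack of a match in that window therefore does not set Psmb9 apart from Tap1. An ISRE match was also present in the windows of Psmb10, Tapbp and B2m, genes that were not called or not tested, and in 3.92% of all 33469 windows of that length. GAS matches were found in 8.87%, NF-kB matches in 47.3% and CCAAT in 37.5% of all windows. The ISRE letters were thus shared by genes that fell and genes that were not called, and such matches are descriptions of letters, not measured binding sites.

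Tap2, Psmb8, Tap1 and Psmb9 lie within 36.2 kb (chromosome 20, 4636357 to 4672512, mRatBN7.2). The 2 nearest tested genes with symbols were RT1-DMa, which encodes a class II peptide-loading chain, at 2.14 ± 0.186 CPM in siRNA_ANK and 2.44 ± 0.460 CPM in the controls, and the chromatin reader gene Brd2, at 212 ± 8.88 CPM in siRNA_ANK and 208 ± 5.61 CPM in the controls, neither of them called (edgeR adjusted p = 0.577 and 0.726). Of 21 other tested genes that start within 500 kb of Tap1, 1 rose and 5 fell, none of them by 2-fold or more. The share called was smaller than the 40.1% over all genes tested. The share that fell was not smaller than the 20.2% over all genes tested, and the median log2 fold change of the 21 was -0.10. The 2 largest of these falls were Itpr3, a calcium channel of the endoplasmic reticulum (log2 fold change -0.72 ± 0.07), and Cuta (-0.71 ± 0.07), at 469.5 and 357.7 kb; they were chosen after their values were seen.

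**Figure D3:**
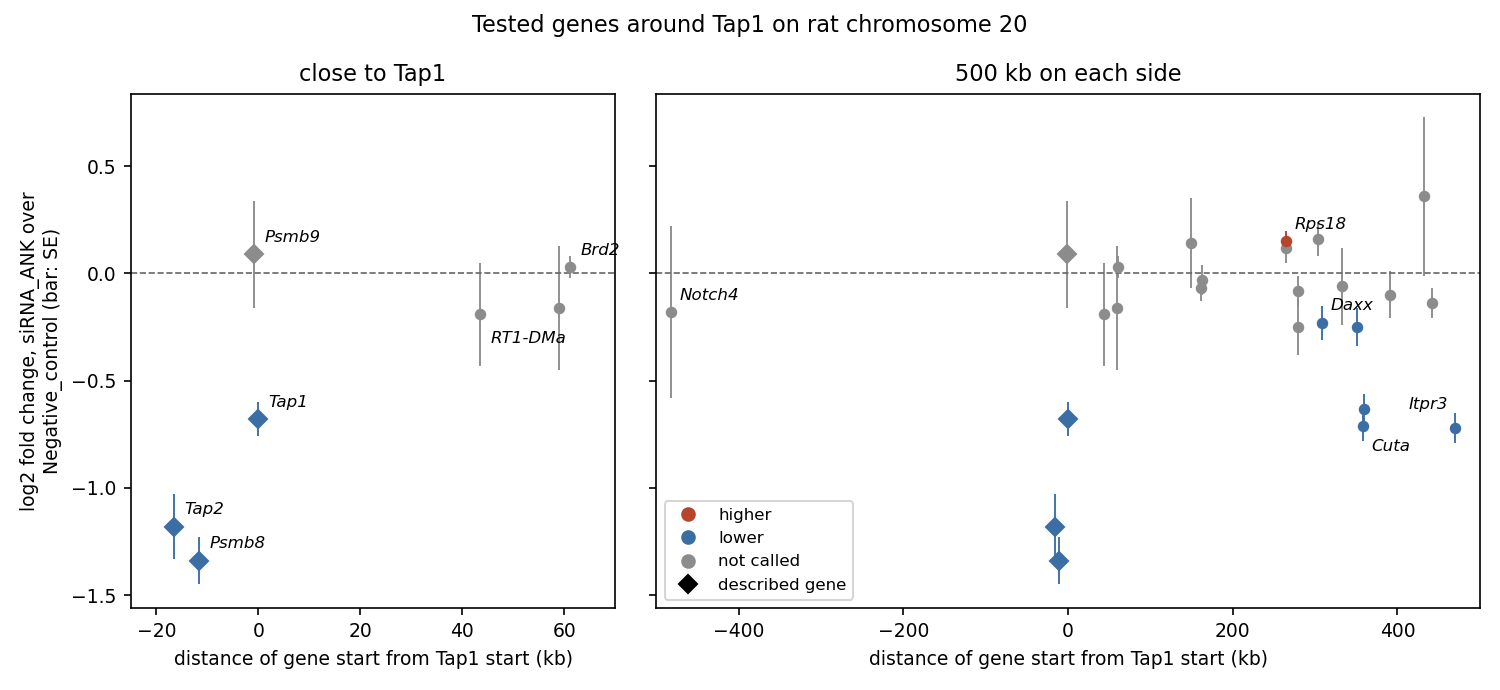
Log2 fold change of siRNA_ANK over Negative_control with its SE (vertical axis) for the tested genes around Tap1, by distance of each gene's start from the Tap1 start in kb (horizontal axis), close to the gene on the left and 500 kb to each side on the right. Diamonds are the described genes; Tap2, Psmb8 and Tap1 lie at -1.18, -1.34 and -0.68, and Psmb9 lies at 0.09.

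The remaining genes of the set showed small differences or were not measured. Erap1 (chromosome 2, 3931904 to 3972447, plus strand) measured 72.0, 80.6 and 76.7 CPM in siRNA_ANK and 66.3, 71.6 and 65.2 CPM in the controls. The lowest siRNA_ANK library lay just above the highest control, and the log2 fold change was 0.18 ± 0.06 (edgeR adjusted p = 0.0437). This call was lost with DESeq2 (adjusted p = 0.0956) and without Negative_control replicate 1 or 3 or siRNA_ANK replicate 2 (edgeR adjusted p = 0.156, 0.167 and 0.171). B2m (chromosome 3, 109095729 to 109101766, plus strand) measured 257, 271 and 281 CPM in siRNA_ANK and 276, 271 and 250 CPM in the controls. Its groups overlapped throughout, with a log2 fold change of 0.02 ± 0.06 on 4011 to 4907 counts per library (edgeR adjusted p = 0.813).

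Nlrc5 (chromosome 19, 10477628 to 10562121, minus strand) was near the limit of detection, with 3, 5 and 3 counts in siRNA_ANK and 0, 3 and 3 counts in the controls, and it was not tested. The 0 in Negative_control replicate 1 allows up to 3 counts, or 0.169 CPM, by counting error alone. Tapbp (chromosome 20, 4956937 to 4966181, minus strand) had no count in any library. Its annotated span of 9245 bases lies wholly inside that of Rgl2 on the same strand, which averaged 34.5 ± 1.62 CPM in siRNA_ANK and 30.9 ± 2.68 CPM in the controls (edgeR adjusted p = 0.140). Zbtb22, the other gene inside the Rgl2 span, had 13 counts over the siRNA_ANK libraries and 7 over the controls. How reads shared by overlapping genes were assigned is not given in the sources used here, so the count of 0 does not show whether tapasin was expressed.

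Ranked by CPM per kb, B2m was the highest of the set in both groups, at 138 ± 6.16 in siRNA_ANK and 136 ± 6.97 in the controls. In siRNA_ANK the order of the means after it was, with the range over libraries, Erap1 (10.5 to 11.8), Tap2 (5.53 to 9.38), Tap1 (6.11 to 6.47), Psmb8 (5.07 to 5.98), Psmb10 (3.78 to 4.03) and Psmb9 (0.948 to 1.25). The ranges of Tap2 and Tap1, and of Tap2 and Psmb8, overlapped there. In the controls the order was Tap2 (15.5 to 17.0), Psmb8 (13.1 to 15.2), Tap1 (9.99 to 10.5), Erap1 (9.52 to 10.5), Psmb10 (3.32 to 3.91) and Psmb9 (0.861 to 1.15), with overlapping ranges for Tap1 and Erap1. Erap1 thus stood above both TAP genes and Psmb8 in siRNA_ANK, and below or level with them in the controls.

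Across the 6 libraries, Psmb8, Tap1 and Tap2 varied together, with Pearson r of log2 CPM between 0.93 and 0.97. Psmb9 had r of -0.26, -0.27 and -0.18 with Psmb8, Tap1 and Tap2. With only 2 groups of 3 libraries these values mostly carry the difference between the groups, and they are given as descriptions. Among 9332 other genes with a symbol and a mean of at least 5 CPM, the one most alike in pattern was Tef for Tap1 (r = 0.9995), Ttc39c for Tap2 (r = 0.9990) and Tmem214 for Psmb8 (r = 0.9985).

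Beyond the set, chaperones of peptide loading fell. Of 5 tested genes of class I loading and glycoprotein quality control, 4 fell and none rose, where 20.2% of all genes tested fell. The median log2 fold change was -1.02, and 0.01 over all genes tested. Calr, which encodes calreticulin, was at 1278, 1168 and 1654 CPM in siRNA_ANK, against 3635, 3053 and 3614 CPM in the controls (log2 fold change -1.33 ± 0.14, edgeR adjusted p = 0.000414). Pdia3, the isomerase partner of tapasin, fell 2.27-fold to 738 ± 121 CPM in siRNA_ANK, against 1673 ± 173 CPM in the controls. The folding sensor gene Uggt1 fell 2.03-fold and Canx, which encodes calnexin, 1.56-fold, while Ganab, a glucosidase subunit named after its values were seen, was not called (adjusted p = 0.216). These chaperones also serve the folding of many other proteins of the endoplasmic reticulum. The number lower was again 4 without siRNA_ANK replicate 3 and Negative_control replicate 2.

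Partners of the proteasome moved by less. Of 9 activator and assembly genes, 2 rose and 5 fell, where 19.9% of all genes tested rose and 20.2% fell, and none changed by 2-fold. Psme1 and Psme2 encode the alpha and beta subunits of the interferon-inducible activator PA28. Psme2 fell 1.32-fold to 14.0 ± 1.25 CPM in siRNA_ANK, against 18.5 ± 1.15 CPM in the controls (edgeR adjusted p = 0.00599). Psme1, chosen after its values were seen, averaged 29.0 CPM in each group (adjusted p = 0.995). Pomp, the maturation factor of the catalytic core, fell 1.26-fold to 46.4 ± 1.27 CPM in siRNA_ANK, against 58.7 ± 2.97 CPM in the controls. Psme3, which encodes the nuclear activator PA28 gamma, rose 1.18-fold, and the assembly chaperone gene Psmg2 fell 1.24-fold. Without Negative_control replicate 1 or siRNA_ANK replicate 1 the number that fell was 3, and the number that rose was 1 with DESeq2 and without any 1 library other than Negative_control replicate 2. Of 7 other peptidases, 3 were called, a share close to the 40.1% of all genes tested. All 3 fell, where 20.2% of all genes tested fell. These were the giant peptidase gene Tpp2 by 1.38-fold, to 111 ± 4.44 CPM in siRNA_ANK against 153 ± 5.40 CPM in the controls, Lap3, an aminopeptidase, by 1.31-fold and Nrdc by 1.15-fold. Without Negative_control replicate 1 or siRNA_ANK replicate 2, the number of these peptidases that fell was 2.

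**Figure D4:**
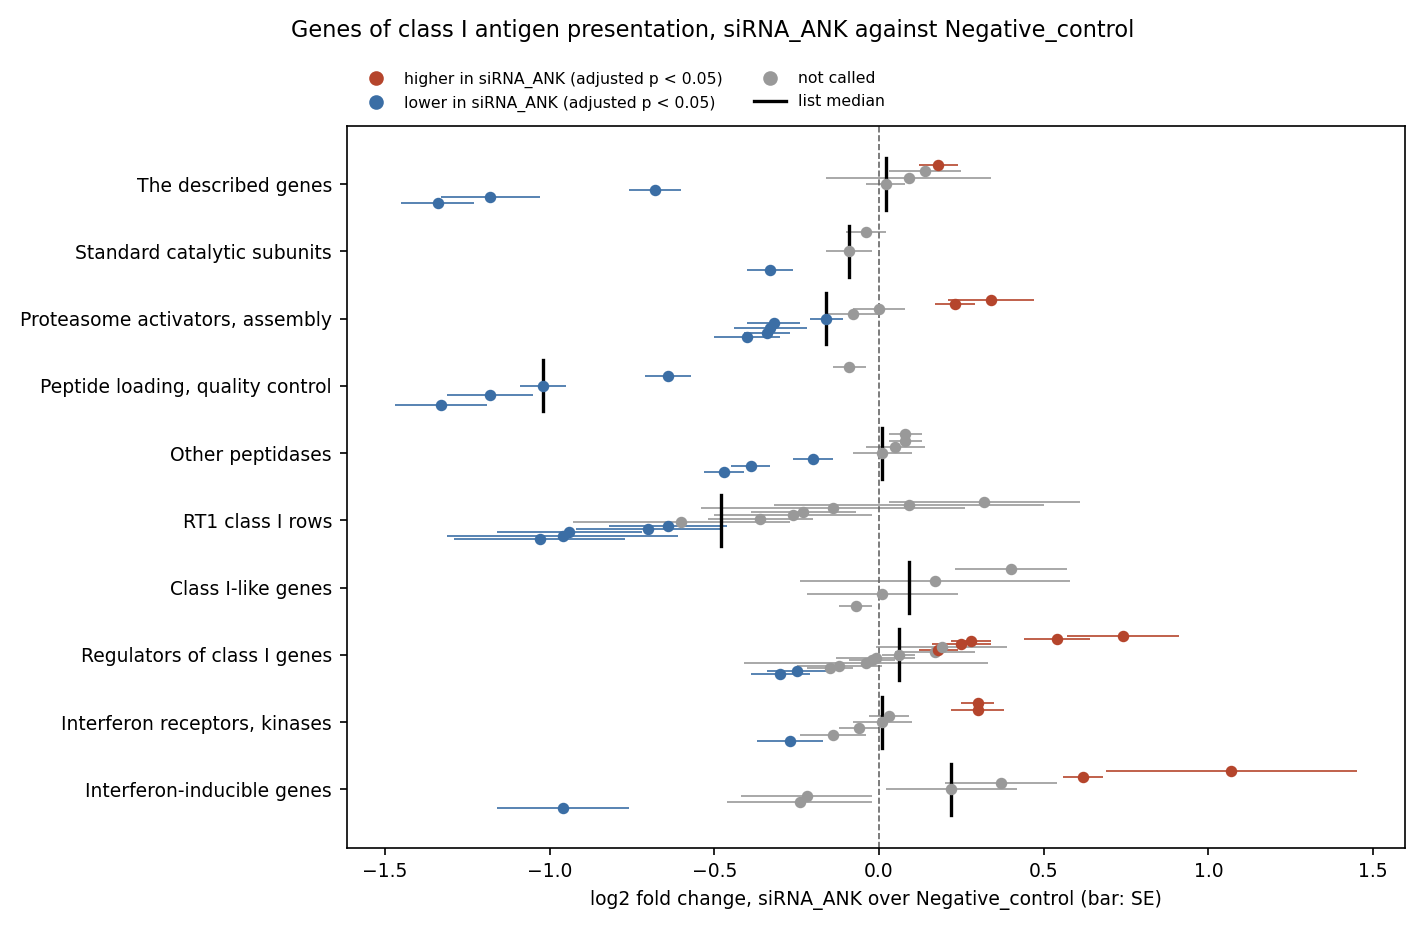
Log2 fold change of siRNA_ANK over Negative_control with its SE (horizontal axis) for the tested genes of each list (rows), red where higher, blue where lower and grey where not called at an adjusted p under 0.05, with the list median as a black line. Peptide loading and quality control genes have a median of -1.02 and RT1 class I rows one of -0.48, while regulators of class I genes and interferon receptors have medians of 0.06 and 0.01.

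Class I heavy chains of the rat are encoded by the RT1 family of the MHC. Of 21 RT1 rows outside class II, 12 were tested and all were low, summing to 26.9 to 32.0 CPM in siRNA_ANK and 37.9 to 42.8 CPM in the controls. In siRNA_ANK 5 rows fell and none rose, with a median log2 fold change of -0.48. The share called was close to the 40.1% over all genes tested, where 20.2% fell. RT1-M3-1, the most abundant row, measured 6.79 ± 1.43 CPM in siRNA_ANK and 8.68 ± 0.389 CPM in the controls and was not called (edgeR adjusted p = 0.0893), nor was RT1-N3, at 5.06 ± 0.302 and 5.93 ± 0.499 CPM in siRNA_ANK and control libraries (adjusted p = 0.269). RT1-T24-1, the next in abundance, fell 1.56-fold to 3.31 ± 0.339 CPM in siRNA_ANK, against 5.15 ± 0.337 CPM in the controls (adjusted p = 0.00986). RT1 genes are near-identical copies whose reads can be shared or dropped in counting, so these rows are uncertain. No row with an RT1-A symbol was found, so the classical class I genes of the RT1-A region have no values under that name here. Without Negative_control replicate 3 or siRNA_ANK replicate 2 the number that fell was 3, and with only rows of at least 5 CPM on average (2 rows) it was 0; without siRNA_ANK replicate 3 and Negative_control replicate 2 it was 4. Of 4 tested class I-like genes, 0 were called by edgeR or DESeq2, and 1, Cd1d1, had an unadjusted p under 0.05, at 7.09 ± 0.777 CPM in siRNA_ANK and 5.40 ± 1.03 CPM in the controls. Fcgrt, which encodes the neonatal Fc receptor, averaged 137 ± 3.48 CPM in siRNA_ANK and 143 ± 4.88 CPM in the controls. Without Negative_control replicate 3, 1 of these genes was called higher. Of 3 tested class II presentation genes, 0 were called by edgeR or DESeq2 and 0 had an unadjusted p under 0.05; the invariant chain gene Cd74 was at 2.27 ± 0.183 CPM in siRNA_ANK and 2.77 ± 0.623 CPM in the controls.

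Of 15 tested regulators of class I genes, 5 rose and 2 fell, with a median log2 fold change of 0.06. This share is close to the 40.1% called over all genes tested. The interferon regulatory factor genes Irf2 and Irf8 rose 1.45-fold and 1.67-fold; Irf2 measured 21.0, 24.8 and 20.1 CPM in siRNA_ANK, against 15.3, 15.1 and 14.9 CPM in the controls (edgeR adjusted p = 0.000585). Nfkb1, of the NF-kB family, rose 1.22-fold and the CREB gene Creb1 fell 1.23-fold. Irf1, a known inducer of the immunoproteasome genes and chosen after its values were seen, averaged 9.52 ± 0.523 CPM in siRNA_ANK and 8.43 ± 0.527 CPM in the controls and was not called (adjusted p = 0.287). With DESeq2 the counts of this list were 3 higher and 1 lower, as they were without Negative_control replicate 1, and the number lower was also 1 without Negative_control replicate 2 or siRNA_ANK replicate 1 or 2.

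Interferon transcripts themselves, Ifng and Ifnb1, had no count in any library. Of 7 tested receptors and kinases 3 were called, near the 40.1% of all genes tested. Jak1 and Ifngr1 rose 1.23-fold each (edgeR adjusted p = 0.000290 and 0.0115) and Tyk2 fell 1.20-fold (adjusted p = 0.0389), a call lost with DESeq2 and with upper quartile scaling. The number of these genes that rose was 1 without Negative_control replicate 1 or 3, and the number that fell was 0 without Negative_control replicate 1 or 3 or siRNA_ANK replicate 1 or 2, and 2 without siRNA_ANK replicate 3. Of 20 symbols of interferon-inducible genes outside the pathway, on 21 rows, 7 rows were tested, of which 2 rose and 1 fell, again near the 40.1% of all genes tested. Apart from Ifit2, the tested rows averaged at most 7.44 CPM (Irgm in the controls) in either group. Only 1 rose with DESeq2 or without Negative_control replicate 1 or 3 or siRNA_ANK replicate 1 or 3. Ifit2 rose 1.54-fold to 76.7 ± 2.63 CPM in siRNA_ANK, against 49.8 ± 1.55 CPM in the controls, and Bst2 was at 1.53 ± 0.338 and 0.714 ± 0.331 CPM in siRNA_ANK and control libraries. The guanylate-binding protein gene Gbp2 fell 1.95-fold to 3.26 ± 0.587 CPM in siRNA_ANK, against 6.34 ± 1.34 CPM in the controls (adjusted p = 0.00168).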

How the data were processed

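RNA of 6 libraries of primary rat VSMCs was analysed. The authors deposited raw counts per gene, in 1 file per library. The submitters' processing notes name featureCounts 1.5.0-p3, DESeq2 and build mRatBN7.2. For the aligner, strand setting and read filters, nothing is given in the sources used. Of the rows, 385 carry no Ensembl identifier or symbol and held 0.306% to 0.339% of the counts; they were kept. Counts were fitted with edgeR 4.0.16 in R 4.3.3 over all genes kept by filterByExpr (minimum count 10, minimum total 15), with TMM scaling and the robust quasi-likelihood test, two-sided, without covariates. Benjamini-Hochberg adjustment ran over the 13016 genes tested, and calls are at an adjusted p under 0.05. Each SE was taken as the absolute log2 fold change divided by the root of its F statistic, and the biological coefficient of variation came to 7.11%. Ratios were tested with an exact permutation test (scipy 1.17.1). Replicates of a group differed by more than sampling noise (chi-square per degree of freedom 2.83 to 12.3).

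The genes and lists were chosen with earlier results of these data known. Named outside the set are Ankh, the standard subunits, the 3 most abundant RT1 rows, per list up to 4 called genes by smallest adjusted p or else the 2 most abundant, and per tested gene the non-member most alike in pattern; genes outside this rule, such as Rgl2 and Zbtb22 (overlap with Tapbp), Brd2 (position) and markers or interferons without counts, were picked with values known. Promoter windows come from RefSeq (GRCr8) and were matched by symbol. Alternatives were DESeq2 1.42.0, limma-voom (limma 3.58.1), DESeq2 size factors, upper quartile scaling, 2 other filters, the replicate number as a block, and leaving out libraries. The floor given for Nlrc5 covers counting error only. The SDs and SEs also take in spread among libraries.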

Additional observations from a re-analysis of the deposited data

How the results depend on the processing

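Psmb8, Tap1 and Tap2 were lower and called under every alternative run, with log2 fold changes of -1.40 to -1.27, -0.71 to -0.66 and -1.41 to -1.02. The rise of Erap1 was lost with DESeq2 (0.17) and ranged from 0.13 to 0.22 when 1 library was left out, so that 0 to 1 of the set was higher. When 1 library was left out, B2m ranged from -0.02 to 0.05 and Psmb9 from -0.03 to 0.18. B2m turned to -0.02 without Negative_control replicate 3 and -0.01 without siRNA_ANK replicate 3, and Psmb9 to -0.03 without Negative_control replicate 3 and -0.02 without siRNA_ANK replicate 1; neither was called. Psmb9 fell below the 5 CPM filter and has no value under it. With DESeq2, 0 of the set, 1 activator or assembly gene and 1 interferon-inducible gene were higher, and regulators were 3 higher and 1 lower; interferon receptors were 0 lower, as with upper quartile scaling, which left 1 regulator lower. With a mean of at least 5 CPM, 1 regulator was lower, 1 inducible gene was higher and 0 lower, and 0 RT1 rows were lower. Without both Negative_control replicate 2 and siRNA_ANK replicate 3, 2 standard subunits, 1 class I-like gene and 2 interferon receptor genes were lower.

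When 1 library was left out, counts ranged from 1 to 2 lower for standard subunits, 1 to 2 higher and 3 to 5 lower for activators and assembly, 0 to 1 higher for class I-like genes, 3 to 5 higher and 1 to 2 lower for regulators, 1 to 2 higher and 0 to 2 lower for interferon receptors, 1 to 2 higher for inducible genes, and 3 to 5 lower for RT1 rows. Other peptidases ranged from 2 to 3 lower. Over all genes the range was 1991 to 2874 higher and 2062 to 2978 lower. The cause of these shifts was not tested. The samples share only a replicate number: same-numbered libraries had correlations of -0.0266, 0.0593 and 0.0437 between their deviations from the group means, and not every library correlated best with its own number. With the replicate number as a block, 2578 genes were higher and 2631 lower, the set had 1 higher and 3 lower, and 1 regulator was lower. Low counts limit the precision for Psmb9, Nlrc5 and the RT1 rows.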
